A study of Saccharomyces cerevisiae with 12 samples.

Results

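Aminoacyl-tRNA synthetases attach each amino acid to its tRNA, and the nuclear genome of Saccharomyces cerevisiae (budding yeast) encodes separate enzymes for the cytosol and for mitochondria. The genes were chosen by name, by matching each transcript identifier to a RefSeq gene name. They comprise 32 of the 5967 transcripts analysed: 18 genes for cytosolic enzymes, 13 for mitochondrial enzymes, and GRS2, a second glycyl-tRNA synthetase gene beside GRS1. Of the cytosolic genes, 4 (ALA1, GRS1, HTS1 and VAS1) were counted as also supplying mitochondria, a list that may not be complete. FRS2 and FRS1 encode the alpha and beta subunits of the cytosolic phenylalanyl enzyme.

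Cytosolic synthetases serve the translation of nuclear-encoded messages, and their genes tend to be expressed together with those for ribosome production. Mitochondrial synthetases are made in the cytosol, imported, and serve the small set of proteins translated from mitochondrial DNA, most of them subunits of the respiratory chain and of ATP synthase. In yeast the RNA-binding protein Puf3 binds transcripts of nuclear-encoded mitochondrial proteins through an element in their 3′ untranslated regions. The mutant studied here lacks Edc3 and the carboxy-terminal part of Lsm4, both of which take part in assembling processing bodies, cytoplasmic granules of mRNA and decay factors.

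RNA sequencing was performed on 12 libraries in 6 groups of 2. The edc3∆lsm4∆C strain, which carries a deletion of EDC3 and lacks the Q/N-rich domain at the carboxy terminus of Lsm4p, was grown with 100 mM sodium perchlorate (NaClO4) throughout or without it, and so was wild-type BY4741, a laboratory strain. The remaining groups were BY4741 grown after exposure to a shock of 5.6 Mach and unshocked BY4741. All cultures were grown in medium lacking uracil at 30 °C to an OD600 of 0.4 to 0.5. Whether the 2 libraries of a group came from different cultures is not stated, so p-values reflect only the spread between them, which may be technical.

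The libraries held 14108937 to 18360737 reads. The check of the mutant gave 1 to 4 EDC3 reads in the mutant libraries, against 745 to 1365 in the wild-type libraries, while LSM4, of which only a part is removed, had 696 to 710 reads in the mutant and 509 to 1100 in the wild type. The mutant libraries also went against the source label BY4741, a leu2 met17 strain of mating type a. LEU2 had 5366 to 6398 reads in the mutant and 0 to 23 in the wild type, and MET17 had 8873 to 30889 in the mutant and 0 to 52 in the wild type. The 6 markers of a cells summed to 432 to 532 reads in the mutant and 9632 to 46471 in the wild type, with AGA2 at 0 to 5 reads in the mutant, and the 4 markers of alpha cells summed to 9413 to 32722 in the mutant and 576 to 1405 in the wild type. MF(ALPHA)1 carried most of the mutant sum, with 6140 to 22817 reads. SAG1 overlapped, with 400 to 1157 reads in the mutant and 433 to 941 in the wild type. Among perchlorate-grown cells SAG1 was lower in the mutant than in the wild type (log2 difference -0.56). The effects of the 2 labelled mutations and of other differences between the strains therefore cannot be told apart. Each strain difference below is one between these strains.

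Short sequence elements differed between the cytosolic and mitochondrial genes. The transcript identifiers, versions included, all occur in the RefSeq annotation of the R64 assembly, from which the sequences were read. The letters TGTANATA (N is any base), the core of the Puf3 element, were searched on the coding strand in the 150 bases after the stop codon. They occurred behind 13 of 13 mitochondrial genes and 2 of 18 cytosolic genes (GLN4 and GUS1), against 12.7% of 5947 genes. This search was chosen after expression values had been seen. The following 24-base windows show the matches, in capitals, for MSW1 and SLM5, the mitochondrial genes with the largest strain differences in untreated cells, for NAM2, called with perchlorate in the wild type, and for MSM1, the mitochondrial gene not called in untreated cells.
MSW1: aaacgcaaTGTAAATAataataca
SLM5: accatcctTGTAAATAtaataatg
NAM2: ctagtgctTGTAAATAgttaaata
MSM1: tactgcacTGTAAATAttaactta
They lie at chrIV:1005168-1005191 on the plus strand (MSW1), and on the minus strand at chrIII:160637-160660 (SLM5), chrXII:882019-882042 (NAM2) and chrVII:840790-840813 (MSM1). The matches begin at bases 33, 92, 33 and 19 after the stop codon in that order.

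The letters AAAAATTT, the core of the ribosomal RNA processing element found upstream of ribosome production genes, were searched on both strands from 250 bases before to 50 bases after the start codon. They occurred at 15 of 18 cytosolic and 0 of 13 mitochondrial genes, against 14.3% of 5947 genes. Windows are shown for the cytosolic genes with large differences in the treatments.
MES1: gaggcagaAAAAATTTctgtacgc
CDC60: agccaccgAAATTTTTttccagag
WRS1: aaacgttgAAAAATTTtttttagt
THS1: tcttgctaAAAAATTTttttcgag
The MES1 window is at chrVII:1021997-1022020 on the minus strand, CDC60 at chrXVI:246929-246952 on the plus strand, WRS1 at chrXV:137879-137902 on the minus strand and THS1 at chrIX:212338-212361 on the plus strand. In these genes the match begins 159, 53, 69 and 153 bases before the start codon in that order, and the CDC60 window carries it on the opposite strand. TGACTC, the site of the amino acid starvation activator Gcn4, occurred in the same window at 6 of 18 cytosolic and 0 of 13 mitochondrial genes (8.04% of all genes). GATGAG, the core of the PAC element, occurred at 5 and 1 (20.1%), of which the matches at THS1 and WRS1 include the start codon. CCAAT, bound by the respiratory activator Hap2/3/4/5, occurred at 7 and 3 (43.6%). The TGACTC match at GLN4 and the only CCAAT matches at FRS2 and SES1 lie after the start codon.

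Transcripts of the cytosolic enzymes were more abundant than those of the mitochondrial enzymes. In RPKM over the coding length, which scales reads to gene length and library total, the median over 12 libraries ran between 121.5 for CDC60 (leucyl) and 536.1 for DED81 (asparaginyl) among cytosolic genes. It ran between 10.34 for ISM1 (isoleucyl) and 38.15 for MSK1 (lysyl) among mitochondrial genes. All 13 mitochondrial medians were below the lowest cytosolic median, and the median of all genes in the series was 38.15. GRS2 had a median level of 17.91, and its level was 2.46 to 6.65% of that of GRS1 in the 12 libraries. The plot of levels shows MSW1 (tryptophanyl) as the mitochondrial gene whose libraries spread furthest, 15.05 to 98.99.

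**Figure D1:**
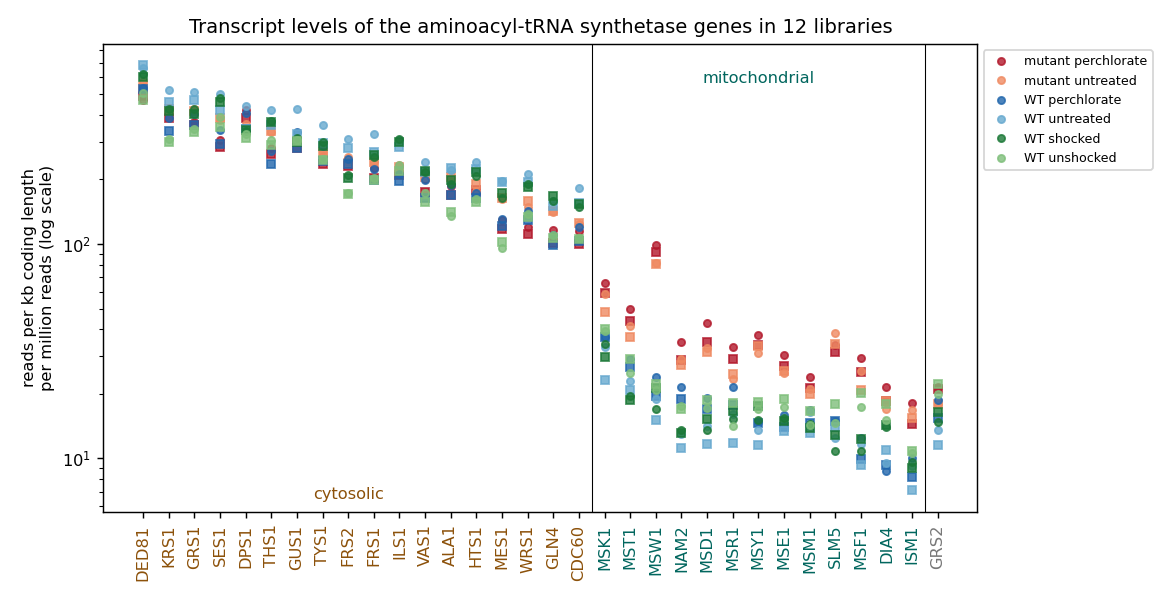
Transcript level (RPKM over coding length, log axis) of each of the 32 genes in the 12 libraries, with colour for group and circles and squares for replicates 1 and 2. Cytosolic medians run between 121.5 and 536.1 and mitochondrial medians between 10.34 and 38.15.

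Summed over each class, the mitochondrial level as a share of the cytosolic level was 11.4 and 10.8% in the mutant with perchlorate and 8.90 and 8.51% in the untreated mutant. It was 5.22 and 5.31% in the wild type with perchlorate and 3.32 and 3.12% in the untreated wild type. In the shock experiment it was 3.82 and 4.00% in shocked cells, against 5.65 and 6.50% in unshocked cells. The 2 libraries of a group were closer to each other than to any library of the group they were compared with.

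**Figure D2:**
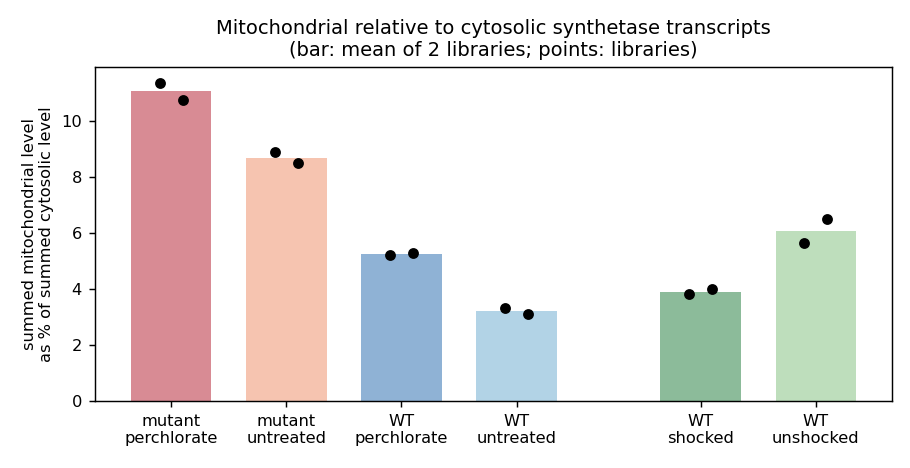
Summed level of the 13 mitochondrial genes as a percent of the summed level of the 18 cytosolic genes, by library (points) with the mean of 2 libraries (bars). The share lies between 8.51 and 11.4% in mutant libraries and between 3.12 and 5.31% in wild-type libraries of the perchlorate experiment.

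The mutant was compared with the wild type in untreated cells. Mitochondrial synthetase transcripts were higher and cytosolic ones lower in the mutant. In limma, on log2 of the normalised read count plus 1 with Benjamini-Hochberg adjustment over 5665 genes, 12 of 13 mitochondrial genes rose and 0 fell, while 11.0% of all genes rose. Of 18 cytosolic genes, 14 fell and 0 rose, while 11.6% of all genes fell. The median log2 difference was 0.83 for the mitochondrial and -0.43 for the cytosolic genes, against 0.0099 for all genes.

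MSW1, the mitochondrial tryptophanyl-tRNA synthetase gene, had normalised read counts of 1314 and 1276 in the mutant, against 333 and 274 in the wild type. The groups did not overlap, and the log2 difference was 2.10 ± 0.14 (SE, n = 2 each; limma adjusted p = 0.00026). SLM5 (asparaginyl) had 801 and 702 normalised reads in the mutant, against 283 and 330 in the wild type, a log2 difference of 1.29 (limma adjusted p = 0.0018). MSY1 (tyrosyl) had 645 and 687, against 310 and 272 (log2 difference 1.20, limma adjusted p = 0.0019), and MSD1 (aspartyl) had 912 and 857, against 431 and 371 (1.14, limma adjusted p = 0.0020). In all 3 genes both mutant libraries lay above both wild-type libraries. MSM1 (methionyl), with 514 and 479 normalised reads against 440 and 364, was not called (log2 difference 0.31, limma adjusted p = 0.18). Its groups did not overlap either. Here and below, the share of all genes whose groups did not overlap was not counted, so non-overlap only describes the values.

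CDC60, the cytosolic leucyl enzyme gene, had the largest cytosolic difference, with 5688 and 5646 normalised reads in the mutant and 9180 and 8133 in the wild type (log2 difference -0.61 ± 0.10, SE, n = 2 each; limma adjusted p = 0.0077). WRS1 (tryptophanyl) had 2729 and 2838 in the mutant, against 4219 and 4056 in the wild type, a log2 difference of -0.57 (limma adjusted p = 0.0082). ILS1 (isoleucyl) and HTS1 (histidyl) fell by 0.52 and 0.51 on the log2 scale. The mutant libraries lay below the wild-type libraries for each of these genes. GRS1, FRS1 and FRS2 fell by 0.39, 0.46 and 0.43, and GRS2 was not called (log2 difference 0.35, limma adjusted p = 0.11). ALA1, DPS1, GLN4 and VAS1 were not called, at log2 differences of -0.32 to -0.29.

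Leaving out either mutant library lowered the number of cytosolic calls and of calls over all genes. The cytosolic median log2 difference was -0.44 without mutant replicate 1 and -0.40 without replicate 2, against -0.43 with all libraries. Fewer mitochondrial genes were called without mutant replicate 1, at a median log2 difference of 0.75. The calls of CDC60 and of ISM1, MSD1, MSF1, MSW1, MSY1, NAM2 and SLM5 held without each of the 4 libraries in turn.

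In perchlorate the mutant again had higher mitochondrial synthetase transcripts than the wild type. All 13 genes rose, while 16.3% of 5701 genes did, and the median log2 difference was 0.78 against -0.0079 for all genes. MSW1 had 1594 and 1565 normalised reads in the mutant, against 425 and 371 in the wild type, a log2 difference of 1.99 ± 0.11 (SE, n = 2 each; limma adjusted p = 4.9e-06). MSF1 (phenylalanyl) had 587 and 528, against 274 and 234 (log2 difference 1.14, limma adjusted p = 0.00024), MSY1 had 787 and 748, against 342 and 363 (1.12, limma adjusted p = 9.8e-05), and DIA4 (seryl) had 408 and 369, against 182 and 209 (0.99, limma adjusted p = 0.00061). None of these groups overlapped. Of the 18 cytosolic genes 1 fell, WRS1, against 15.6% of all genes.

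WRS1 had 2193 and 2144 normalised reads in the mutant with perchlorate, against 2889 and 2802 in the wild type with perchlorate, a log2 difference of -0.39 (limma adjusted p = 0.011). It was not called without wild-type replicate 1 (limma adjusted p = 0.051) or without mutant replicate 2 (0.075). The median over the cytosolic genes was -0.17. GRS1, GRS2, FRS1 and FRS2 were not called, at log2 differences of -0.22, 0.17, -0.14 and -0.20. Without each of the 4 libraries in turn the mitochondrial median was 0.73 to 0.82, and MSM1 was not called. The 2 strain comparisons use different libraries.

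The other nuclear-encoded factors of mitochondrial translation (TUF1, MEF1, MEF2, IFM1, MRF1, RRF1, GUF1) stood alongside: 6 of 7 rose in the mutant in each strain comparison, MEF2 being the exception, while 11.0% of all genes rose between untreated strains and 16.3% in perchlorate. MEF1, a mitochondrial elongation factor G gene, had normalised read counts of 3141 and 2694 in the mutant without perchlorate, against 1100 and 823 in the wild type (log2 difference 1.61, limma adjusted p = 0.0015). TUF1, the mitochondrial elongation factor Tu gene, had 10816 and 10114, against 6303 and 6130 (0.75, limma adjusted p = 0.0023). TGTANATA occurred behind 6 of these 7 genes. PUF3 itself had 2074 and 1521 reads, before normalisation, in the untreated mutant, against 1060 and 792 in the untreated wild type. With perchlorate it had 2498 and 1812 in the mutant, against 1347 and 877 in the wild type. Its part in the differences was not tested. Among the genes outside the synthetases, 725 tested carriers of TGTANATA had a median log2 difference of 0.22 between untreated strains, and 32.4% of them rose, against -0.012 and 7.57% for the 4901 without it. In perchlorate the strain medians were 0.19 for 727 carriers and -0.034 for the other 4931 genes. With perchlorate the carriers' median was 0.014 in the wild type and -0.029 in the mutant, and after shock it was -0.084.

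**Figure D3:**
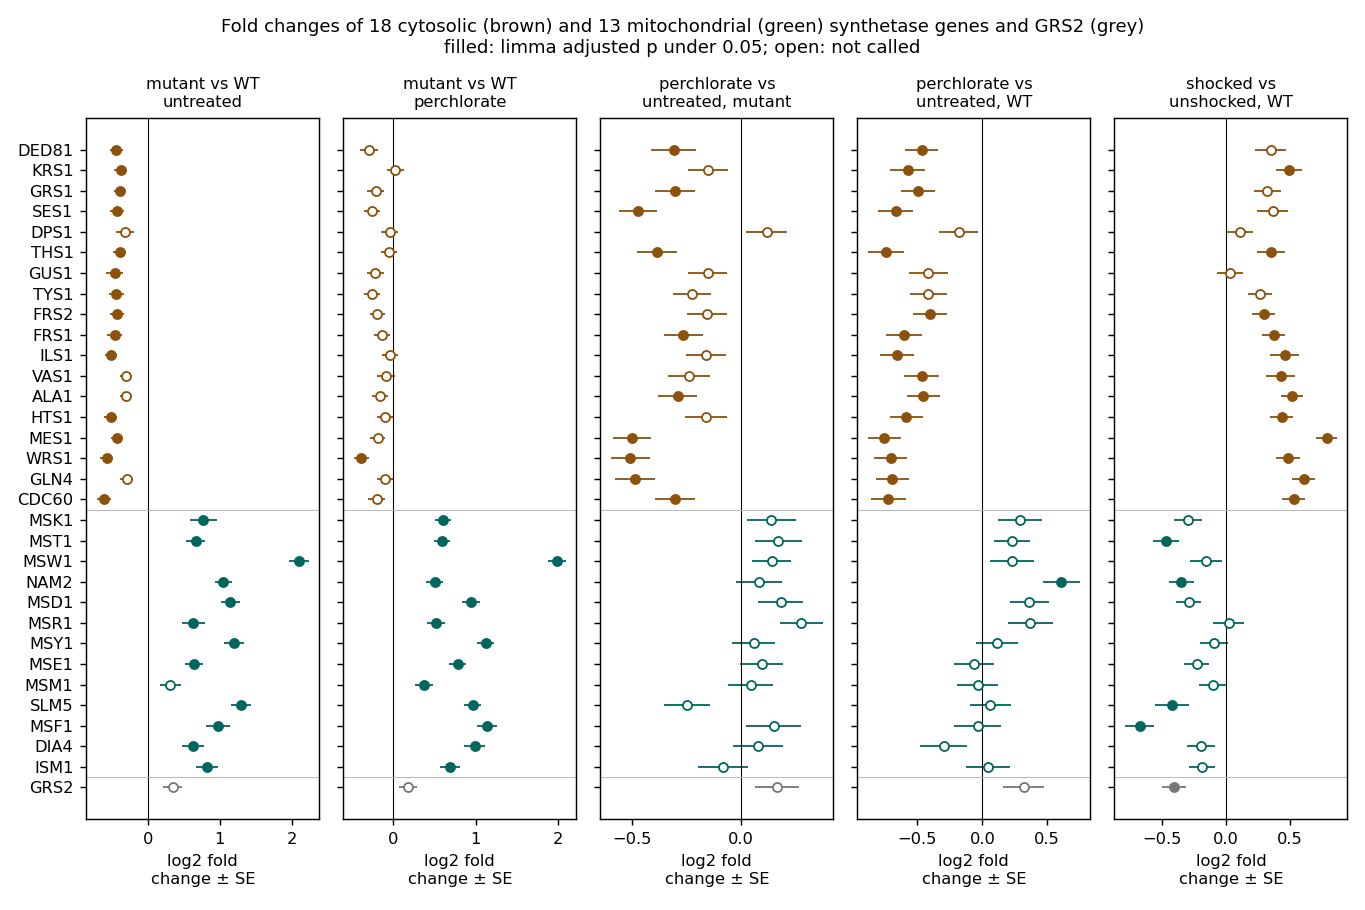
Log2 fold changes with standard errors of all 32 genes in 5 comparisons, each with 2 libraries a group, from limma within each table; filled points have an adjusted p under 0.05. Mitochondrial genes lie right of 0 in both strain comparisons, and cytosolic genes lie left of 0 with perchlorate in the wild type and right of 0 after shock.

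Wild-type cells grown in perchlorate had lower cytosolic synthetase transcripts than untreated wild-type cells. Of 18 cytosolic genes, 15 fell and 0 rose, while 12.1% of 5664 genes fell and 14.3% rose. The median log2 difference was -0.58, against 0.00075 for all genes. Of the 13 mitochondrial genes 1 rose, NAM2, and 0 fell, with a median of 0.11.

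MES1 (methionyl) had 4152 and 4112 normalised reads in perchlorate-grown cells, against 6904 and 7050 in untreated cells, a log2 difference of -0.76 ± 0.13 (SE, n = 2 each; limma adjusted p = 0.0026). THS1 (threonyl) had 8449 and 7835 in perchlorate-grown cells, against 14552 and 12724 in untreated cells (-0.74, limma adjusted p = 0.0042). CDC60 had 5510 and 5065, against 9323 and 8175 (-0.72, limma adjusted p = 0.0047), and WRS1 had 2611 and 2512, against 4285 and 4077 (-0.71, limma adjusted p = 0.0040). All perchlorate-grown libraries lay below all untreated libraries for these 4 genes. GRS1, FRS1 and FRS2 fell by 0.49, 0.61 and 0.40. Of the genes counted as also supplying mitochondria, ALA1, HTS1 and VAS1 fell by 0.46, 0.59 and 0.47. DPS1 (aspartyl), GUS1 (glutamyl) and TYS1 (tyrosyl) were not called, at log2 differences of -0.18, -0.42 and -0.42.

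NAM2, the mitochondrial leucyl enzyme that also takes part in splicing mitochondrial introns, had 811 and 758 normalised reads in perchlorate-grown cells, against 546 and 484 in untreated cells, a log2 difference of 0.61 ± 0.14 (SE, n = 2 each; limma adjusted p = 0.014). The groups did not overlap. GRS2 was not called (0.32). The level of NAM2 or any other transcript is an average over the culture, in which fewer cells expressing a gene and less RNA per cell cannot be told apart. Without either perchlorate library NAM2 was not called, at log2 differences of 0.56 without replicate 1 and 0.66 without replicate 2. Fewer cytosolic genes and fewer of all genes were then called, with cytosolic medians of -0.61 and -0.54 in that order. Without untreated replicate 1 more mitochondrial genes and more of all genes were called, at a mitochondrial median of 0.21. MES1, THS1, CDC60, WRS1, GLN4, ILS1 and SES1 were called without each of the 4 libraries in turn. The a-cell markers moved with the treatment, with 564 to 667 summed RPM (reads scaled to library total) in perchlorate-grown and 1730 to 1860 in untreated wild-type cells, and alpha-cell markers summed to 55.0 to 57.8 in perchlorate-grown and 37.4 to 41.2 in untreated cells. Their part in the differences was not tested.

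In the mutant, 10 of 18 cytosolic genes fell with perchlorate and 0 rose, against 15.7% and 18.0% of 5670 genes, with a median of -0.28. Of the 13 mitochondrial genes 0 were called in limma, edgeR or DESeq2, while 2, MSR1 (0.27) and SLM5 (-0.25 on the log2 scale), had an unadjusted p under 0.05. WRS1 had 2178 and 2136 normalised reads in perchlorate, against 3001 and 3127 untreated (log2 difference -0.51, limma adjusted p = 0.0028), and MES1 had 4075 and 3930, against 5653 and 5655 (-0.50, limma adjusted p = 0.0029). GLN4 (glutaminyl) had 3940 and 3651, against 5332 and 5286 (-0.49), and SES1 (seryl) had 5924 and 5841, against 8114 and 8195 (-0.47). Both treated libraries were below both untreated ones in these 4 genes. These calls and that of THS1 held without each library in turn. Fewer cytosolic genes were called without either untreated library, at medians of -0.25 without replicate 1 and -0.29 without replicate 2. Without untreated replicate 2 a mitochondrial gene was called lower, and the mitochondrial median was 0.069. GRS1 and FRS1 fell by 0.30 and 0.26, while FRS2 and GRS2 were not called, at log2 differences of -0.15 and 0.16. The alpha-cell markers summed to 620 to 697 RPM in the perchlorate-grown mutant and 1860 to 2270 in the untreated mutant, and 1 of the 4 a-cell markers tested rose. Their part was not tested.

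The difference between the mutant and wild-type perchlorate responses was called for 0 of the 31 cytosolic and mitochondrial genes in limma, against 2.59% of 5684 genes. In this test 6 cytosolic and 1 mitochondrial genes had an unadjusted p under 0.05. Of the 31 genes edgeR called 0 and DESeq2 called 1 (ILS1), while they called 146 and 225 of all 5684 genes. ILS1 had the largest cytosolic value, a mutant minus wild-type log2 response of 0.50 (limma adjusted p = 0.088), and NAM2 the lowest of all members, -0.53 (limma adjusted p = 0.17). The median was 0.25 over cytosolic and -0.087 over mitochondrial genes. The wild-type perchlorate comparison and the untreated strain comparison share the untreated wild-type libraries.

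After shock, most cytosolic synthetase transcripts of wild-type cells were higher than in unshocked cells. The median cytosolic level was 217.5 and 208.8 RPKM in unshocked cells and 275.6 and 272.9 in shocked cells. In the untreated wild type of the perchlorate experiment it was 316.8 and 281.6, above both. The unshocked and untreated wild-type libraries were not tested against each other. Of 18 cytosolic genes 12 rose and 0 fell, while 18.1% of 5668 genes rose. Of 13 mitochondrial genes 4 fell, 0 rose and 9 were not called, while 17.3% of all genes fell. DESeq2 called 2 of the mitochondrial genes lower, a share near that of all genes with DESeq2 (896 of 5668). The medians were 0.40 and -0.23, against 0.0037 for all genes.

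MES1 had 6476 and 6565 normalised reads in shocked cells, against 3787 and 3775 in unshocked cells, a log2 difference of 0.79 ± 0.08 (SE, n = 2 each; limma adjusted p = 0.0012). GLN4 had 6725 and 6836 in shocked cells, against 4657 and 4257 in unshocked cells (0.61, limma adjusted p = 0.0042). CDC60 had 8468 and 8525, against 6104 and 5676 (0.53, limma adjusted p = 0.0068), and ALA1 (alanyl) had 9561 and 9628, against 6805 and 6623 (0.52, limma adjusted p = 0.0068). Both shocked libraries lay above both unshocked libraries for these 4 genes. FRS1 and FRS2 rose by 0.37 and 0.29. DED81, DPS1, GRS1, GUS1, SES1 and TYS1 were not called, at log2 differences of 0.030 to 0.37.

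MSF1, the mitochondrial phenylalanyl gene, had 269 and 292 normalised reads in shocked cells, against 429 and 468 in unshocked cells, a log2 difference of -0.67 ± 0.11 (SE, n = 2 each; limma adjusted p = 0.0068). MST1 (threonyl) had 473 and 440, against 605 and 661 (-0.47), SLM5 had 281 and 323, against 376 and 433 (-0.42), and NAM2 had 635 and 597, against 821 and 748 (-0.35). GRS2 also fell, with 479 and 516 normalised reads in shocked cells, against 646 and 672 in unshocked cells (-0.41, limma adjusted p = 0.022). The shocked libraries lay below the unshocked ones in these 5 genes. Without either unshocked library no mitochondrial gene was called, and fewer cytosolic genes and fewer of all genes were called. MES1 was the only cytosolic gene called without unshocked replicate 2. The cytosolic and mitochondrial medians were 0.31 and -0.22 without unshocked replicate 2 and 0.50 and -0.26 without unshocked replicate 1. GRS2 was not called without either, at log2 differences of -0.44 without replicate 1 and -0.38 without replicate 2. Fewer cytosolic genes were called without shocked replicate 1 or 2, at medians of 0.38 and 0.43. The a-cell markers summed to 2530 to 2590 RPM in shocked and 1770 to 1940 in unshocked cells, and the alpha-cell markers to 70.6 to 76.5 in shocked and 48.6 to 51.0 in unshocked cells. Their part in the differences was not tested.

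Cytosolic and mitochondrial enzymes were then paired by amino acid, which gave 13 pairs. They use FRS2 for phenylalanine and YDR341C, the cytosolic arginyl gene that is not among the 32. The log2 difference of the mitochondrial member exceeded that of its cytosolic partner in 13 of 13 pairs in each strain comparison and in each perchlorate comparison, and in 0 of 13 after shock. In both strain comparisons and after shock the ranges of the cytosolic and mitochondrial genes did not overlap. Any pairing would give the same counts there, so these counts add nothing to the class differences above. With perchlorate in the mutant the median gap was 0.30. The gaps of DED81 and SLM5 (0.059), DPS1 and MSD1 (0.063) and ILS1 and ISM1 (0.078) were below the standard error of either member. The gaps were not tested. The difference between partners was largest for WRS1 and MSW1 in both strain comparisons (2.67 untreated and 2.38 in perchlorate). CDC60 and NAM2 were furthest apart with perchlorate in the wild type (1.33), and FRS2 and MSF1 after shock (-0.97). The plot of 2 pairs by library shows the levels.

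**Figure D4:**
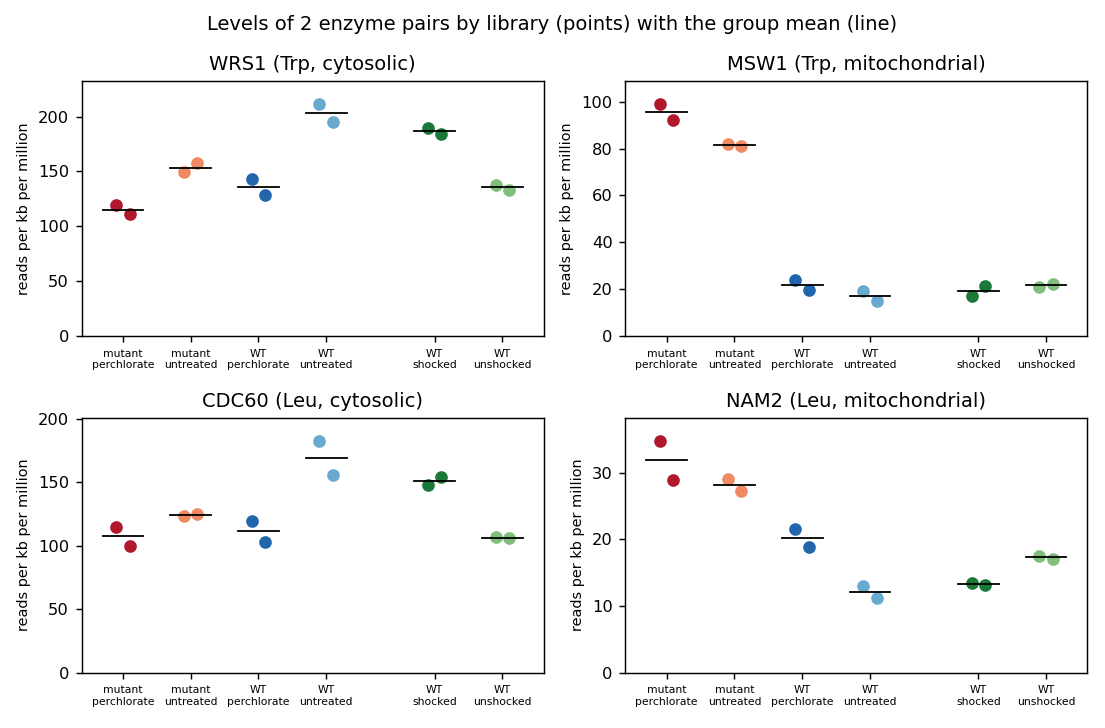
Levels (RPKM over coding length, axes starting at 0) of the tryptophanyl pair WRS1 and MSW1 and the leucyl pair CDC60 and NAM2 in each library, with group means as lines. MSW1 reaches 98.99 in the mutant and does not fall below 15.05 in any library.

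Factors of cytosolic elongation (TEF1, TEF2, TEF4, CAM1, EFB1, EFT1, EFT2, YEF3, HEF3, HYP2, ANB1) were counted in the same comparisons. With perchlorate 5 of 11 fell and 1 rose in the wild type (12.1% and 14.3% of all genes), and 7 fell and 1 rose in the mutant (15.7% and 18.0%). Between strains 6 fell and 1 rose untreated (11.6% and 11.0%), and 6 fell and 0 rose in perchlorate (15.6% and 16.3%). After shock 3 of 11 rose and 0 fell, a share near the 18.1% of all genes that rose. TEF4, an elongation factor 1 subunit gene, had 19792 and 22554 normalised reads with perchlorate in the wild type, against 34028 and 38084 untreated (log2 difference -0.77, limma adjusted p = 0.0043). HEF3, the gene that rose there, had a larger log2 difference of 1.60. Its mutant minus wild-type log2 response was -0.98 (limma adjusted p = 0.036), the only interaction called among the 11. Partners of the synthetases outside the 32 included the cytosolic arginyl and cysteinyl genes YDR341C and CRS1, the synthetase cofactor gene ARC1, and GTF1, HER2 and PET112, which encode the mitochondrial amidotransferase that completes glutaminyl-tRNA, with FMT1. Of these 7, ARC1, CRS1 and YDR341C fell and GTF1 rose with perchlorate in the wild type (12.1% and 14.3% of all genes), and in the mutant ARC1, CRS1, YDR341C and FMT1 fell and GTF1 rose (15.7% and 18.0%). HER2 and PET112 rose in the mutant in both strain comparisons, where 11.0% of all genes rose untreated and 16.3% in perchlorate. YDR341C fell in the untreated one, 1 of 7 and near the 11.6% of all genes that fell. The other partners were not called in the strain comparisons. CRS1 and YDR341C rose after shock, where 18.1% of all genes rose. YDR341C had normalised read counts of 3610 and 3468 with perchlorate in the wild type, against 6502 and 5905 untreated (log2 difference -0.81, limma adjusted p = 0.0022). Among genes outside the synthetases, the 819 tested carriers of AAAAATTT had a median log2 difference of -0.26 with perchlorate in the wild type, against 0.033 for the 4806 without it. In the mutant with perchlorate the medians were -0.16 for 822 carriers and 0.022 for the other 4808 genes, and after shock they were 0.32 for 820 carriers and -0.029 for the other 4809 genes. Between untreated strains, where 14 of 18 cytosolic synthetase genes fell, the carriers' median was -0.015, and 12.6% of carriers fell, against 11.2% of genes without the letters. Between strains in perchlorate the medians were 0.043 for carriers and -0.019 for the others.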

How the data were processed

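Per the submitters' processing notes, the authors used FastQC, Trim Galore and HISAT2, without versions. The genome build, the read counter and its strand setting: not given in the sources used here. The authors deposited, for each of 5 comparisons, normalized counts, a signal equal to reads divided by a library size factor. Log2 fold changes and p-values and q-values of the authors were also deposited; the authors' deposited table calls (q under 0.05) 16, 9, 17 and 2 cytosolic genes lower with perchlorate in wild type, perchlorate in mutant, mutant untreated and mutant in perchlorate, and 15 higher after shock. In the same order the authors' deposited table calls 1, 0, 12 and 12 mitochondrial genes higher, and 2 lower after shock. Shares over all genes were not counted for the authors' calls. The deposited values resolved into whole reads (100% within 0.01 reads).

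Transcripts with a mean of at least 10 were tested within each table with limma 3.58.1 in R 4.3.3 (eBayes, trend) on log2 of the value plus 1, with Benjamini-Hochberg adjustment over all genes and a threshold of 0.05. The interaction used the 8 libraries of both perchlorate tables. Identifiers matched RefSeq names for 5944 of 5970 transcripts by accession and 26 by locus tag; 3 are not reported here. Named genes were the 4 called members with the largest change per class and direction, plus GRS1, GRS2, FRS1 and FRS2, members at the extremes of level, and up to 3 called genes of each other list; other names were chosen after values were seen. edgeR 4.0.16 and DESeq2 1.42.0 on recovered reads were alternatives. Members and lists were chosen with earlier results of these data known. Levels per kb use coding length. No member shared a near-identical copy (95% identity over 50% of its length), and tests were checked on simulated data. With 2 libraries a group, precision is limited by their number.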

Additional observations from a re-analysis of the deposited data

How the results depend on the processing

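Leaving out each library in turn moved the number of called genes. In the wild type with perchlorate 8 to 15 cytosolic and 0 to 4 mitochondrial genes were called, in the mutant 5 to 9 and 0 to 1, between untreated strains 2 to 16 and 7 to 11, between strains in perchlorate 0 to 1 and 12 to 12, after shock 1 to 8 and 0 to 4, and for the interaction 0 to 0 in both classes. Calls over all genes moved too, for example 511 to 2380 with perchlorate in the wild type (1499 with all libraries) and 453 to 2081 after shock (2007). With DESeq2, 2 cytosolic genes were called lower between strains in perchlorate, where 873 of 5701 genes were lower. It called 2 mitochondrial genes lower after shock, near the share of all genes (896 of 5668). In the interaction DESeq2 called 1 cytosolic gene, and 225 of 5684 genes.

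Same-numbered libraries deviated together with r of 0.12 to 0.51 over genes, but with 2 pairs a comparison the numbers were not taken as a pairing. With a replicate block, 3 of 13 mitochondrial genes rose with perchlorate in the wild type, a share near that of all genes (1245 of 5664). In the mutant 1 of 13 rose, below the share of all genes (1248 of 5670). Between strains in perchlorate 11 of 18 cytosolic genes fell, while 1669 of 5701 genes did. Calls over all genes in that comparison were 3183, against 1818 without the block. Of 610 values for single named genes under an alternative, 545 stayed on the same side of the threshold (genes called and genes not called), 58 lost a call, 49 of them with a library left out, and 7 gained one; none changed sign. With 100 bases searched after the stop codon, TGTANATA still occurred behind 13 of 13 mitochondrial genes. It then occurred behind 2 of 18 cytosolic genes and 10.2% of 5947 genes. A search of 250 bases contains the main window, so its count of 13 of 13 could not fall and tests nothing. There the letters occurred behind 3 of 18 cytosolic genes and 15.3% of 5946 genes. Both lengths were chosen after seeing the data. Every member had at least 181 reads in each library; how counting error compares with the spread between libraries was not tested.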

Other observations

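Genes of tRNA maturation (splicing, end processing and base modification) moved with the cytosolic synthetases after shock: 40 of 51 rose and 0 fell, with a median log2 difference of 0.72, against 18.1% of all genes called higher. With perchlorate in the wild type 12 of 51 fell and 1 rose, with a median of -0.30, against 12.1% of all genes lower and 14.3% higher. Between untreated strains 3 rose and 1 fell, both below the shares of all genes (11.0% higher and 11.6% lower). Between strains in perchlorate 13 of 51 rose and 0 fell, against 16.3% and 15.6% of all genes. Genes of the general amino acid control and initiation factor 2 machinery (15 genes) had 11 higher and 1 lower after shock (18.1% and 17.3% of all genes), and 7 lower and 0 higher with perchlorate in the wild type (12.1% and 14.3%); GCN4, the starvation activator, was not called in either (log2 differences 0.21 and -0.25).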
